A study of Mus musculus with 3 samples.

Results

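Complement components and their regulators were described in the mouse mammary carcinoma line JC through 8 genes chosen by name: C3, C4b, C1s1, C1ra, Cfb, Serping1, Cd55 and Cd59a. All 8 had 1 row each among the 55471 features of the table, and 4 of them (C3, C1ra, C1s1 and Cd59a) reached a mean of 1 TPM over the libraries, the level from which a gene is called measured here. TPM, a length-scaled share of the transcripts in a library, is a read number divided by gene length and scaled to a fixed total. Polyadenylated RNA of cultured cells was sequenced from 3 populations with 1 library each. JC-WT is the line labelled WT. JC-P, called parental, is the population recovered from a mammary fat pad tumour on day 14. JC-M3 was made by 3 rounds in which cells descended from JC-P were put into the tail vein and taken back from the lung with collagenase, on day 28 of a round. All 3 carry the genotype label WT, grew in the same medium with serum and antibiotics, and are labelled epithelial-like. The treatment label of JC-P reads metastasis like that of JC-M3, so its fat pad origin rests on the protocol text. No label says how many cultures, animals or lesions stand behind a library.

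Complement is a cascade of plasma proteins in which 1 protease cleaves the next. The classical pathway starts when C1q binds a surface and the proteases C1r and C1s are activated and cleave C4 and C2. The lectin pathway reaches the same step through MASP proteases, and the alternative pathway amplifies C3 cleavage through factor B. All pathways meet at C3, and the terminal proteins then build a pore in the membrane. Host cells limit this with C1 inhibitor (Serping1), decay-accelerating factor (Cd55) and CD59, and the liver is the best known source of the plasma proteins, although many cells outside it, tumour cells and fibroblasts among them, also make them.

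The libraries held between 18093426 and 23386413 reads in genes, and 14527 features were measured. With 1 library a group there was no replicate check and no significance test. The intervals given are exact 95% intervals from read numbers alone, for the ratio of TPM without the added 0.5; they leave out variation between cultures, and reads that are copies of 1 molecule make them too narrow. Log2 ratios are of TPM + 0.5, which understates differences of low genes. Of 8 epithelial markers 3 were measured. Krt8 stood at 1503 (JC-WT), 1873 (JC-P) and 681 (JC-M3) TPM and Krt18 at 48.6 (JC-WT), 48.5 (JC-P) and 18.4 (JC-M3) TPM. Krt7 took another course, at 1.74 (JC-WT), 0.58 (JC-P) and 1.70 (JC-M3) TPM. Epcam was listed at 0 in all libraries and the epithelial cadherin Cdh1 at 0 (JC-WT), 0.83 (JC-P) and 0.67 (JC-M3) TPM. Of 9 macrophage markers 4 were at 0 in all libraries, Adgre1, Ptprc, Fcgr1 and Tyrobp, and the summed level of the 9 was 68.2 (JC-WT), 49.6 (JC-P) and 72.2 (JC-M3) TPM, nearly all of it Cd14 and Cd68. Of 4 hepatocyte markers, Alb, Ttr and Fgb were at 0 in all 3 libraries. The fourth, Apoa1, stood at 0.45 (JC-WT), 1.11 (JC-P) and 0 (JC-M3) TPM, below the 1 TPM mean. The 7 endothelial markers summed to 7.91 (JC-WT), 35.9 (JC-P) and 3.08 (JC-M3) TPM, nearly all of it Cdh5 and Plvap, the 2 that were measured. Cdh5 stood at 0.09 (JC-WT), 17.7 (JC-P) and 0.10 (JC-M3) TPM and Plvap at 7.60 (JC-WT), 17.8 (JC-P) and 2.71 (JC-M3) TPM. Of the rest, 4 lay below the 1 TPM mean and Kdr was at 0. The part of these markers in the results was not tested. In bulk RNA, fewer cells that express a gene and less RNA per cell cannot be told apart.

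The members fell into 3 tiers of level, and within the upper tier they differed less than 2-fold between any libraries. C1ra, C3, Cd59a and C1s1 lay between 11.1 and 66.1 TPM. C4b and Cfb had a few reads, and Serping1 and Cd55 had none. The 8 genes summed to 123 (JC-WT), 125 (JC-P) and 128 (JC-M3) TPM, so their total was nearly level. The order of the upper tier changed. Levels of C1ra and C1s1 are uncertain because part of their sequence occurs in other genes, as given below, and counting intervals do not cover that. In JC-WT, C1ra and C3 lay within counting error of each other, with a C1ra-to-C3 ratio of 1.03 (0.93 to 1.13), followed by Cd59a and then C1s1. In JC-P, C1ra stood 2.11-fold above C3 (1.94 to 2.30), and C3 was 1.17-fold above Cd59a (1.03 to 1.34). In JC-M3, C1ra was 2.30-fold above C3 (2.12 to 2.496), and C1s1 was above Cd59a, by 1.24-fold (1.04 to 1.49). C4b and Cfb could not be told apart in any library, since the intervals of their ratios included 1.

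**Figure D1:**
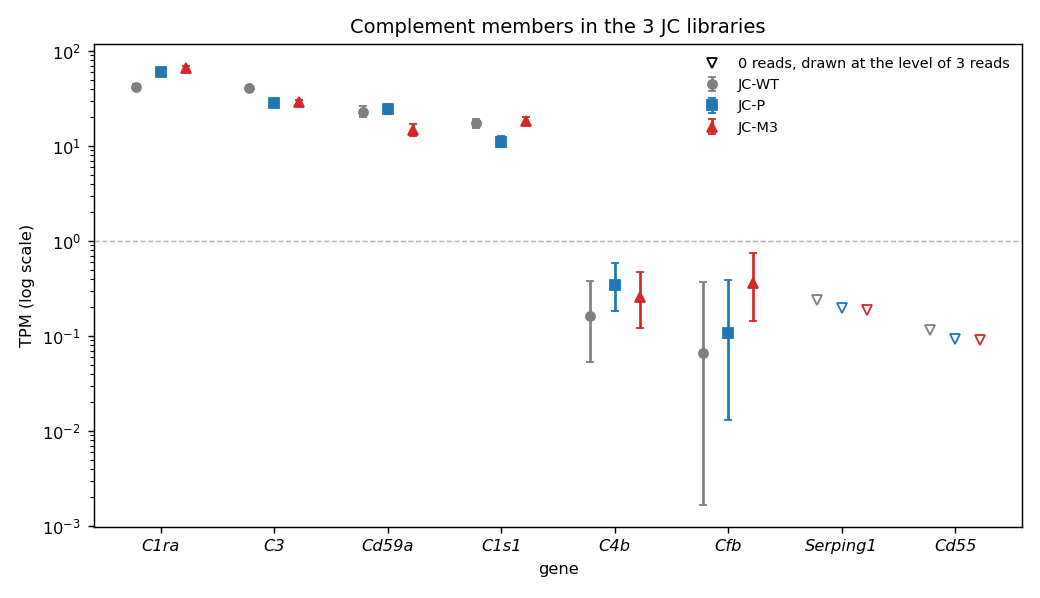
Level of each member in TPM on a log axis, by library (grey circles JC-WT, blue squares JC-P, red triangles JC-M3), with 95% counting intervals of single libraries as bars. C1ra, C3, Cd59a and C1s1 lie between 11.1 and 66.1 TPM, C4b and Cfb at 0.36 TPM or less, and Serping1 and Cd55 have 0 reads and are drawn as open symbols at the level that 3 reads would give; the dashed line marks 1 TPM.

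No measured member differed by at least 2-fold in any of the 3 comparisons. Over all measured genes, 4.76% were higher by at least 2-fold and 2.33% lower by that much in JC-P versus JC-WT. The shares were 3.82% and 5.38% for JC-M3 versus JC-P, and 6.14% and 5.27% for JC-M3 versus JC-WT. The counting interval left out no change for 3 of the 4 measured members in each comparison, against 55.5% of all genes with an interval for JC-P versus JC-WT, 59.7% for JC-M3 versus JC-P and 60.3% for JC-M3 versus JC-WT. For a set of 4 genes, a count of 3 is near those shares. The median log2 ratio of the 4 members was -0.20, 0.06 and -0.21 for the same comparisons in turn, and that of all measured genes 0.01, -0.01 and 0.00. The comparisons share libraries and are not independent of each other.

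**Figure D2:**
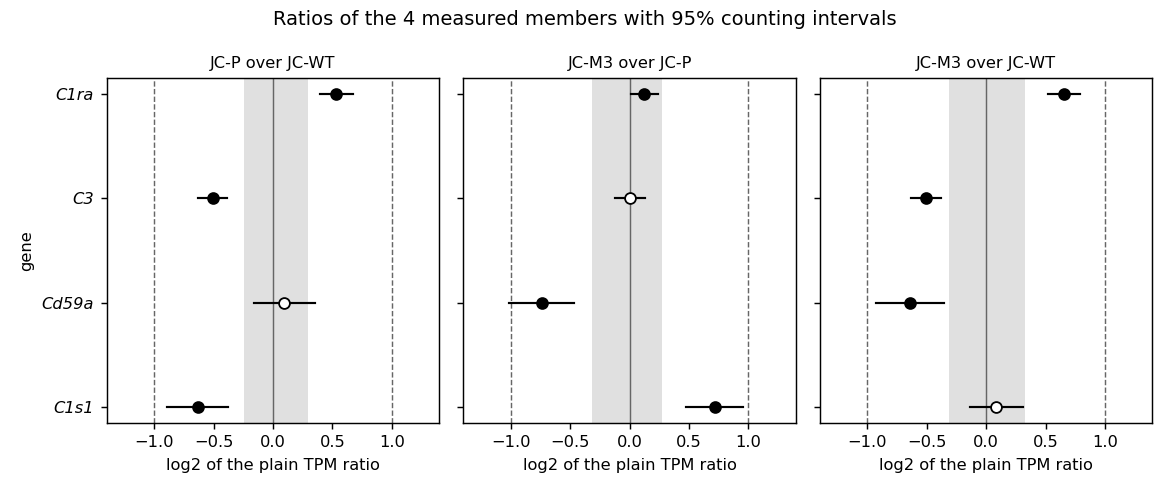
Log2 of the plain TPM ratio of the 4 measured members in each comparison (horizontal axis), with 95% counting intervals as lines; filled points have an interval that leaves out 0. The grey band holds the middle 50% of all measured genes and the dashed lines mark 2-fold, inside which all 12 points lie.

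The stretch before the transcription start is shown for the members with a RefSeq entry (GRCm38.p6), which 5 of the 8 had, since it sets detected genes beside Cd55, which had no reads. C1ra is left out, because an annotated exon of the gene (GENCODE M21) covers 216 bases of that stretch, against 0 bases in each stretch shown. Each is the 250 bases before the start, 5′ to 3′ on the gene's strand, with motif matches in capitals. For C1s1 it is the outer of 2 listed starts.
C3, chr17:57228137-57228386, minus strand: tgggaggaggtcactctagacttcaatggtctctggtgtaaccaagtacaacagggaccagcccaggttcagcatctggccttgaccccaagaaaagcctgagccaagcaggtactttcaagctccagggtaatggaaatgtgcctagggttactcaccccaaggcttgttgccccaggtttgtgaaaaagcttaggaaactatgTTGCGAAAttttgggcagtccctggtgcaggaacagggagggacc
C1s1, chr6:124542360-124542609, minus strand: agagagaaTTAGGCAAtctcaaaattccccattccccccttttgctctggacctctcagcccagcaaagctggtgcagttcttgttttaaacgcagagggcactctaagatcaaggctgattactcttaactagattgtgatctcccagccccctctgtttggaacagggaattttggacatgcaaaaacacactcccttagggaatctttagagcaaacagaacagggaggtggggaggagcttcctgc
Cd59a, chr2:104095551-104095800, plus strand: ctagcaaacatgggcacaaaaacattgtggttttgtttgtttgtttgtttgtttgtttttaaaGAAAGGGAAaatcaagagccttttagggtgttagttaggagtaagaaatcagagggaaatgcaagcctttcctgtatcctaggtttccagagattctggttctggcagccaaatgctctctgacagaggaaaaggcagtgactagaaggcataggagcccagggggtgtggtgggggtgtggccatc
Cd55, chr1:130462745-130462994, minus strand: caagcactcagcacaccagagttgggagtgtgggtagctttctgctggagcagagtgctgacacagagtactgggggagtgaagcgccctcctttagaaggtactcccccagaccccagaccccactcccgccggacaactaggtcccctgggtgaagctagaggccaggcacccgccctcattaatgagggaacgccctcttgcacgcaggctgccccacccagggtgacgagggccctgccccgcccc
Capitals mark C/EBP matches in C3 and C1s1 and an interferon-response core match in Cd59a.

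Windows of 300 bases, from 250 before to 50 after each start, were searched on both strands for an NF-kB motif (GGANTTTCC), the core of the interferon-stimulated response element (GAAANNGAA), a STAT motif (TTCNNNGAA) and a C/EBP motif (TTGCNNAA), which did not overlap one another in these genes. C3 had 1 C/EBP match, at position -45 from its start, a motif found in 10.8% of all 32851 promoter windows. C1s1 had 1 C/EBP match, at position -242 from the outer start, and the window of its inner start had no match. C1ra had a C/EBP and a STAT match, both after the start and outside the stretch shown. Cd59a had 1 interferon-response core match, at position -187, a motif held by 8.56% of all windows. The NF-kB motif, held by 1.25% of all windows, had no match in these genes, and the Cd55 window had no match of any of the 4. The STAT motif was held by 8.30% of all windows. A match is only a run of letters, and neither a match nor its absence shows whether a factor binds. The 250 bases before Cd55 were 64% G or C, against 44.8% to 52.0% before the starts of the other genes shown.

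C1ra encodes C1r, the protease that activates C1s within the C1 complex. Its gene lies on chromosome 6 from 124512405 to 124523443 on the plus strand (GRCm38), with 11 exon blocks. It stood at 41.9 (JC-WT), 60.6 (JC-P) and 66.1 (JC-M3) TPM, from 671 (JC-WT), 1187 (JC-P) and 1351 (JC-M3) reads. JC-WT was the low library. The log2 ratio was 0.53 (0.39 to 0.67) for JC-P versus JC-WT and 0.65 (0.52 to 0.79) for JC-M3 versus JC-WT, and between JC-M3 and JC-P it was 0.12 (0.01 to 0.24). Among all measured genes, 22.5% lay at least as far from 0 as C1ra for JC-P versus JC-WT and 23.1% for JC-M3 versus JC-WT. C1ra was lowest in JC-WT, as was the summed level of the 8 fibroblast markers, at 90.6 (JC-WT), 157 (JC-P) and 144 (JC-M3) TPM, with 6 of the 8 measured and Lum at 0 in all. The markers differed in course. Col1a2, Col3a1 and Dcn were lowest in JC-WT, Pdgfra and Dpt were lowest in JC-M3, and Pdgfrb was lowest in JC-P. Col3a1, at 3.99 (JC-WT), 46.0 (JC-P) and 8.76 (JC-M3) TPM, made up most of the higher sum in JC-P. Their part in the level of C1ra was not tested.

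C1s1 encodes C1s, the protease that cleaves C4 and C2. It lies on the same chromosome from 124530345 to 124542359 on the minus strand, 6.90 kb beyond the end of C1ra. It stood at 17.3 (JC-WT), 11.1 (JC-P) and 18.3 (JC-M3) TPM, from 290 (JC-WT), 229 (JC-P) and 393 (JC-M3) reads. JC-P was the low library, and JC-M3 and JC-WT lay within counting error of each other. The log2 ratio was -0.61 (-0.89 to -0.38) for JC-P versus JC-WT and 0.69 (0.48 to 0.96) for JC-M3 versus JC-P, whereas for JC-M3 versus JC-WT it was 0.08 (-0.14 to 0.31), an interval that includes no change. Among all measured genes, 17.7% lay at least as far from 0 as C1s1 for JC-P versus JC-WT and 18.0% for JC-M3 versus JC-P. Like C1s1, the summed macrophage markers were lowest in JC-P, through Cd14 and Cd68, which made up nearly all of the sum. Adgre1, Ptprc, Fcgr1 and Tyrobp were at 0 in all libraries. The 3 others lay below the 1 TPM mean and differed in course: Lyz2 was lowest in JC-P, Csf1r in JC-M3 and Mrc1 in JC-WT. Markers of other lists, Krt7 and the neutrophil marker S100a8 among them, were also lowest in JC-P. With 3 libraries, a shared low library is common. The part of these markers in the level of C1s1 was not tested.

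The balance of the pair can be read within a library, where the scaling of libraries drops out. C1ra stood at 5.44 times the level of C1s1 in JC-P (4.72 to 6.30), against 2.43 times in JC-WT (2.11 to 2.80). In JC-M3 the ratio was 3.61 (3.22 to 4.05). The ratio in JC-P over that in JC-WT was 2.24 (1.83 to 2.74), the ratio in JC-M3 over that in JC-P was 0.66 (0.55 to 0.80), and the ratio in JC-M3 over that in JC-WT was 1.49 (1.24 to 1.78). The pair was set in ratio after its values were seen, so these ratios are a description.

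Both genes have a near copy in the mouse, C1rb and C1s2, within a cluster that spans 143 kb and also holds C1rl, a gene for a C1r-like protease. Of the 50-base windows of C1ra transcripts, 50.8% also occur in other genes, mostly in C1rb, and for C1s1 the share is 35.1%, mostly in C1s2. How the authors' counting split such reads is not given in the sources used here, so the single levels are uncertain. C1rb stood at 5.98 (JC-WT), 7.89 (JC-P) and 11.0 (JC-M3) TPM and C1s2 at 4.69 (JC-WT), 2.29 (JC-P) and 3.01 (JC-M3) TPM. With the copies added, C1ra and C1rb summed to 47.9 (JC-WT), 68.5 (JC-P) and 77.1 (JC-M3) TPM, and C1s1 and C1s2 to 22.0 (JC-WT), 13.4 (JC-P) and 21.3 (JC-M3) TPM. The sums gave log2 ratios for JC-P versus JC-WT of 0.51 for the C1r pair and -0.69 for the C1s pair, the same directions as the single genes. Any reads left out of the counting because they match both copies would be missing from the sums too. For JC-M3 versus JC-WT the C1s sum gave -0.04, where C1s1 alone gave 0.08. C1rl, with no shared windows, stood at 22.2 (JC-WT), 35.7 (JC-P) and 28.2 (JC-M3) TPM, a log2 ratio of 0.68 (0.50 to 0.88) for JC-P versus JC-WT. An antisense gene, Gm16567, lies under 18.4% of the exonic bases of C1s1 and was listed at 0 in all 3 libraries.

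**Figure D3:**
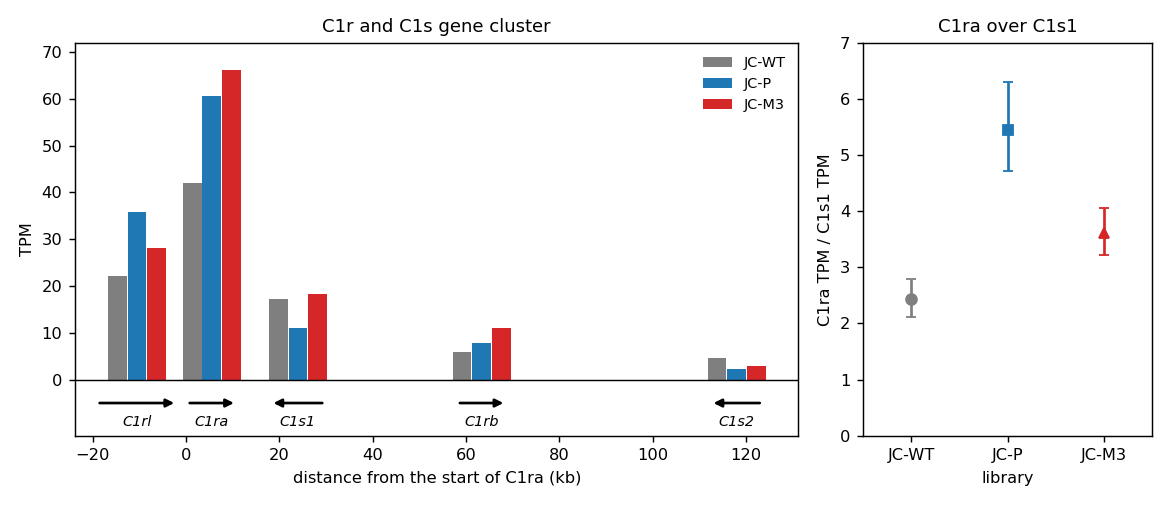
Left, TPM of the 5 genes of the C1r and C1s cluster by library, placed by distance in kb from the start of C1ra, with arrows for gene extent and strand (bars are offset for visibility). Right, C1ra TPM divided by C1s1 TPM in each library with 95% counting intervals, at 2.43 (JC-WT), 5.44 (JC-P) and 3.61 (JC-M3).

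C3 encodes the central component, whose cleavage product binds covalently to surfaces. The gene lies on chromosome 17 from 57203970 to 57228136 on the minus strand, with 42 exon blocks, and none of its windows occur in other genes. It stood at 40.8 (JC-WT), 28.7 (JC-P) and 28.7 (JC-M3) TPM, from 1127 (JC-WT), 970 (JC-P) and 1014 (JC-M3) reads. JC-WT was the high library, and JC-M3 and JC-P lay within counting error of each other. The log2 ratio was -0.50 (-0.63 to -0.38) for JC-P versus JC-WT, -0.50 (-0.63 to -0.38) for JC-M3 versus JC-WT and 0.00 (-0.13 to 0.13) for JC-M3 versus JC-P. C3 and C1ra differed in course: the ratio of C3 to C1ra was 0.47 in JC-P and 0.97 in JC-WT, and the first over the second was 0.49 (0.43 to 0.55). Of all measured genes, 24.2% lay at least as far from 0 as C3 for JC-P versus JC-WT and 32.4% for JC-M3 versus JC-WT.

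C4b encodes C4, the substrate that C1s cleaves. It lies on chromosome 17 from 34728380 to 34743882 and had 5 (JC-WT), 13 (JC-P) and 10 (JC-M3) reads, or 0.16 (JC-WT), 0.35 (JC-P) and 0.26 (JC-M3) TPM. The plain ratio of JC-P versus JC-WT was 2.12, with a log2 interval of -0.49 to 2.93 that includes no change. Of the windows of C4b, 34.6% also occur in other genes, mostly in its near copy C4a. C4a stood at 0.48 (JC-WT), 0.69 (JC-P) and 0.66 (JC-M3) TPM, so the pair summed to 0.64 (JC-WT), 1.03 (JC-P) and 0.91 (JC-M3) TPM. The summed level of both C4 genes, as counted, was thus low in all 3 libraries. The summed reads of the pair, 21 (JC-WT), 41 (JC-P) and 38 (JC-M3), do not depend on how reads counted once divide between the copies. Any reads left out of the counting because they match both copies would be missing from the sums of reads and of TPM.

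Cfb encodes factor B, which carries the protease of the alternative pathway convertase. It lies on chromosome 17 from 34856374 to 34862518 and had 1 (JC-WT), 2 (JC-P) and 7 (JC-M3) reads, or 0.07 (JC-WT), 0.11 (JC-P) and 0.36 (JC-M3) TPM. The ratio of JC-M3 versus JC-WT had a log2 interval of -0.51 to 7.95, so no difference was detectable at this depth. The annotation places another gene, Gm20547, over 79.5% of the exonic bases of Cfb on the same strand. Reads there may not be assigned to either gene, and Gm20547 was listed at 0 in every library, so the level of Cfb is uncertain. C2, which lies next to it and has 42.8% of its exonic bases under the same gene, had 10 (JC-WT), 5 (JC-P) and 10 (JC-M3) reads.

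Serping1 encodes C1 inhibitor, the serpin that stops C1r, C1s and the MASP proteases. It lies on chromosome 2 from 84765387 to 84775444 with 2325 exonic bases, and none of its windows or exonic bases are shared with other genes. It had 0 reads in all 3 libraries, where 3 reads would be 0.24 (JC-WT), 0.20 (JC-P) and 0.19 (JC-M3) TPM. C1ra, the transcript of its target protease, stood at 41.9 TPM or more in the same libraries. The nearest measured protein-coding genes on either side of Serping1 were active. Ube2l6, an interferon-induced enzyme gene 23.4 kb away, stood at 185 (JC-WT), 355 (JC-P) and 181 (JC-M3) TPM, and Gm19426 at 12.6 (JC-WT), 11.9 (JC-P) and 7.23 (JC-M3) TPM.

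Cd55 encodes decay-accelerating factor, a lipid-anchored surface protein that dissociates C3 convertases. It lies on chromosome 1 from 130439027 to 130462744 and also had 0 reads in all libraries, where 3 reads would be 0.12 (JC-WT), 0.09 (JC-P) and 0.09 (JC-M3) TPM. Its copy Cd55b was at 0 as well, and the antisense gene Gm16083 under 2.10% of its exonic bases was listed at 0. Zero reads were common: 31727 of the 55471 features, and 6902 of 21974 protein-coding ones, had none in any library. The nearest measured protein-coding gene to Cd55 was Pfkfb2, 226 kb away, at 7.37 (JC-WT), 7.13 (JC-P) and 7.45 (JC-M3) TPM.

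Cd59a encodes CD59, the lipid-anchored protein that blocks assembly of the membrane pore. It lies on chromosome 2 from 104095801 to 104115354, and 3.87% of its windows occur in other genes. It stood at 22.9 (JC-WT), 24.5 (JC-P) and 14.7 (JC-M3) TPM, from 223 (JC-WT), 292 (JC-P) and 183 (JC-M3) reads. JC-M3 was the low library, and JC-P and JC-WT lay within counting error of each other. The log2 ratio was -0.72 (-1.01 to -0.46) for JC-M3 versus JC-P, -0.62 (-0.93 to -0.35) for JC-M3 versus JC-WT and 0.09 (-0.16 to 0.35) for JC-P versus JC-WT. Of all measured genes, 17.1% lay at least as far from 0 as Cd59a for JC-M3 versus JC-P and 24.4% for JC-M3 versus JC-WT. The neighbour of Cd59a, Fbxo3, 32.6 kb away, took a like course, at 22.0 (JC-WT), 23.3 (JC-P) and 16.3 (JC-M3) TPM. Lmo2, beyond Fbxo3, stood at 5.94 (JC-WT), 4.07 (JC-P) and 1.75 (JC-M3) TPM. On the other side Hipk3 stood at 39.7 (JC-WT), 37.6 (JC-P) and 41.0 (JC-M3) TPM. Cd59b, the copy of the gene known mainly from mouse testis, had 2 (JC-WT), 11 (JC-P) and 12 (JC-M3) reads.

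Of the 65 complement genes listed by role, 21 were measured and 24 were at 0 in all 3 libraries. Apart from the 8 members, 17 of 57 were measured. Of these 17, 1 was higher by at least 2-fold and 1 lower by that much in JC-P versus JC-WT, 0 higher and 2 lower in JC-M3 versus JC-P, and 1 higher and 2 lower in JC-M3 versus JC-WT. Of all measured genes, 4.76% were higher and 2.33% lower in the first comparison, 3.82% and 5.38% in the second, and 6.14% and 5.27% in the third, so counts this small in 17 genes are near the background. The median log2 ratios of the 17 were 0.11, 0.19 and 0.19 for the 3 comparisons in turn.

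Of 11 classical pathway genes 5 were measured, those of the C1r and C1s cluster described above, and none was past 2-fold. The lectin pathway, with 3 of 9 genes measured, had reads listed for its protease genes but none for those of mannose-binding lectin. Levels here are per gene and do not tell transcript forms of a gene apart. Masp1, a protease gene of that pathway, stood at 41.2 (JC-WT), 50.8 (JC-P) and 58.2 (JC-M3) TPM, near the level of C1ra. Masp2, which cleaves C4 and C2, stood at 3.32 (JC-WT), 3.64 (JC-P) and 5.16 (JC-M3) TPM, but an antisense neighbour, Tardbp, covers 54.9% of its exonic bases and its level is uncertain. Colec12, a scavenger receptor with a lectin domain, was at 57.3 (JC-WT), 55.8 (JC-P) and 93.1 (JC-M3) TPM, with a log2 ratio of 0.73 (0.68 to 0.80) for JC-M3 versus JC-P. All 3 measured lectin genes, the uncertain Masp2 among them, had ratios above 0 for JC-M3 versus JC-P and for JC-M3 versus JC-WT, none past 2-fold. Of all 14527 measured genes, 7144 were above 0 for JC-M3 versus JC-P and 7284 for JC-M3 versus JC-WT. A set of 3 genes is too small to set apart from those shares. Mbl1 and Mbl2 were at 0.

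Of 4 genes of the alternative pathway, C3 and Cfp were measured. Cfp, the gene of properdin, which stabilises the C3 convertase, stood at 16.6 (JC-WT), 15.5 (JC-P) and 19.1 (JC-M3) TPM. The level of C3 relative to Cfp was 1.51 in JC-M3 and 2.45 in JC-WT, and the first over the second was 0.61 (0.49 to 0.77). Cfd, which activates factor B, was at 0. Of 7 terminal genes only C8g was measured, at 2.37 (JC-WT), 3.47 (JC-P) and 1.17 (JC-M3) TPM from 19 (JC-WT), 34 (JC-P) and 12 (JC-M3) reads. It was at least 2-fold lower in JC-M3 than in JC-P, with a log2 ratio of -1.25 (-2.65 to -0.58).

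Of 15 soluble regulators and related proteins 3 were measured and 9 were at 0 in all libraries. Clu, the gene of clusterin, which binds terminal complexes, stood at 3.96 (JC-WT), 6.24 (JC-P) and 5.09 (JC-M3) TPM. Cd109, a surface protein related to C3 in sequence and known as a TGF-beta co-receptor rather than as a complement regulator, stood at 1.92 (JC-WT), 5.05 (JC-P) and 7.18 (JC-M3) TPM. It was the gene past 2-fold upwards in JC-P versus JC-WT, with a log2 ratio of 1.199 (1.01 to 1.80), and in JC-M3 versus JC-WT, with 1.67 (1.53 to 2.30). Cfi, the gene of factor I, the protease that cuts surface-bound C3, was at 0 in all libraries.

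Of 7 membrane regulators, Cd59a and Cr1l were measured. Cr1l, the gene of Crry, a rodent inhibitor of C3 convertases with a role like that of Cd55, stood at 10.1 (JC-WT), 8.51 (JC-P) and 9.80 (JC-M3) TPM. Cd46 lay below the 1 TPM mean, at 0.64 (JC-WT), 1.501 (JC-P) and 0.69 (JC-M3) TPM. The summed level of the 7 membrane regulators was 26.6 TPM in JC-M3, against 35.8 TPM in JC-P, and stood at 34.0 TPM in JC-WT. Cd59a and Cr1l made up nearly all of it. The ratio of Cd59a to Cr1l was 1.503 in JC-M3, against 2.88 in JC-P, and the first over the second was 0.52 (0.42 to 0.65).

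Of 12 receptors and C1q-binding proteins 5 were measured. Itgb2, the shared beta chain of the leukocyte integrins that bind C3 fragments, was at least 2-fold lower in JC-M3. It stood at 2.34 TPM in JC-M3, against 12.1 TPM in JC-P, with 10.9 TPM in JC-WT, which gave log2 ratios of -2.15 (-2.84 to -1.92) versus JC-P and -2.00 (-2.70 to -1.75) versus JC-WT. Itgax, an alpha chain of those integrins, was at 2.06 (JC-WT), 0.73 (JC-P) and 0.49 (JC-M3) TPM, with log2 ratios of -1.06 (-2.27 to -0.77) for JC-P versus JC-WT and -1.37 (-2.99 to -1.25) for JC-M3 versus JC-WT. The leukocyte marker Ptprc was at 0 in the same libraries. Thbd, the gene of thrombomodulin, stood at 27.7 (JC-WT), 17.8 (JC-P) and 15.9 (JC-M3) TPM, C1qbp, a C1q-binding protein of mitochondria, at 214 (JC-WT), 143 (JC-P) and 186 (JC-M3) TPM, and the chaperone gene Calr at 1948 (JC-WT), 2033 (JC-P) and 2227 (JC-M3) TPM. C3ar1, the receptor gene for the C3a fragment, stood at 0.26 (JC-WT), 0.28 (JC-P) and 0.27 (JC-M3) TPM.

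**Figure D4:**
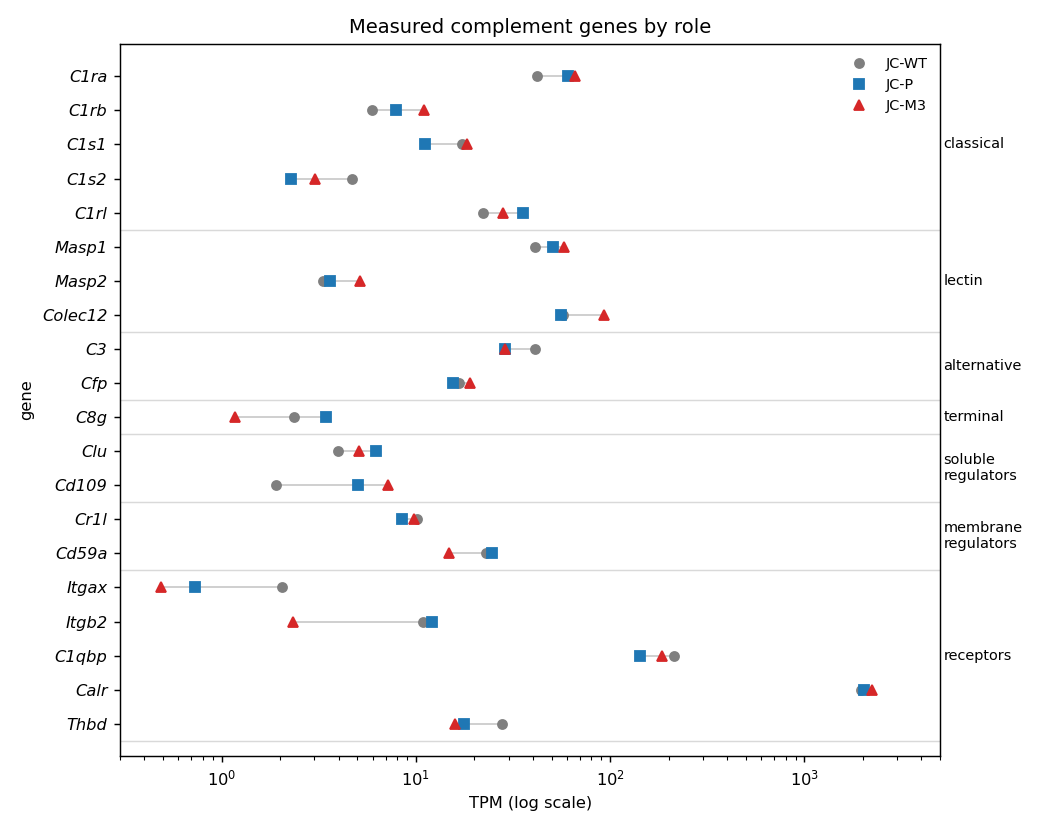
TPM on a log axis of the measured complement genes described above, grouped by role, with grey circles for JC-WT, blue squares for JC-P and red triangles for JC-M3; a grey line joins the lowest and highest library of a gene. Cd109, Itgax, Itgb2 and C8g are the genes with a spread past 2-fold on the TPM + 0.5 scale, and the 4 members lie closer together.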

How the data were processed

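The authors deposited TPM values for 55471 features in 3 libraries, 1 per group, per the file headers. Tools listed in the submitters' processing notes are STAR 2.7.9a, featureCounts and FastQC 0.11.9, with the builds mm10 and GRCm38; which annotation and strandedness were used in counting is not given in the sources used here, while the kit is stranded per the labels' protocols. Multiplying TPM by merged exon lengths of GENCODE M21 (GRCm38), known for 55230 features, gave whole reads within 0.01 of a read for 98.4% to 98.5% of expressed features, all members included. Ratios used log2 of TPM + 0.5 over features averaging 1 TPM or more, called from 2-fold. Intervals are exact conditional (Clopper-Pearson) 95% intervals of recovered reads, and for ratios of ratios the conditional odds ratio. A planned search of protein sequences was not run. Shared sequence is the share of 50-base transcript windows found in other genes.

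The members and gene lists were chosen with earlier results of these data known. Named were the members, every measured complement gene, the 2 nearest measured protein-coding neighbours a side (a selection is printed), up to 6 called inflammatory genes, and like-patterned genes of called members; a complement gene and a neighbour are not reported here. Genes below 1 TPM, pairs set in ratio and marker lists set beside a member were picked after their values were seen. Alternatives were 2 scalings, 3 pseudocounts, 2 filters, 2 thresholds and summed rows. The code was tested on simulated data. Software was Python 3.11.15, scipy 1.17.1, pandas 2.3.3, numpy 2.4.6 and, for plots, matplotlib 3.10.9.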

Additional observations from a re-analysis of the deposited data

How the results depend on the processing

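With 1 library a group, every ratio compares a pair of libraries, and counting error is the only error the depth can show; C4b and Cfb, with 1 to 13 reads, are limited by it. The count of members past 2-fold stayed at 0 in each comparison under both other scalings and all pseudocounts. The 3-fold threshold, summed rows and the filter at a mean of 10 TPM could not change it. A count of 0 at 2-fold stays 0 at 3-fold, each member has 1 row, and that filter keeps the same 4 members. With no filter it was also 0, at the pseudocount of the main ratios. At pseudocount 0.1, Cfb, which was not measured, had log2 ratios of 1.47 for JC-M3 versus JC-WT and 1.15 for JC-M3 versus JC-P. Its counting intervals include no change in both. At 1.5-fold the count of members was 1 for JC-P versus JC-WT (C1s1), 2 for JC-M3 versus JC-P (C1s1 and Cd59a) and 2 for JC-M3 versus JC-WT (C1ra and Cd59a). All 108 member ratios recomputed with other scalings, pseudocounts or summed rows moved by less than their counting intervals allow, at most 0.06 on the log2 scale for a measured member. Summed rows could not move them, because each member has 1 row. A scaling applies 1 factor to a whole library, and a pseudocount only draws a ratio toward 0 or toward the plain ratio. Small moves were thus largely set in advance and are no separate check of the ratios. The ratio of C3 for JC-M3 versus JC-P, near 0, turned to -0.006 and -0.002 under the other scalings.

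The counts for all 21 measured complement genes had their alternatives added after the data were seen. For JC-P versus JC-WT, 2 were past 2-fold, with 1 at pseudocount 1, 0 at pseudocount 2, among genes averaging 10 TPM or more and at 3-fold, and 7 at 1.5-fold. The count was 3 at pseudocount 0.1, which added C1s2. It was also 3 with no filter and without mitochondrial chromosome genes, each of which added Cd59b. For JC-M3 versus JC-P, 2 were past 2-fold, with 1 at pseudocount 2 and at 3-fold, 0 among genes averaging 10 TPM or more and 5 at 1.5-fold. With no filter it was 3, which added C1qc. For JC-M3 versus JC-WT, 3 were past 2-fold, 0 among genes averaging 10 TPM or more, 5 with no filter and 10 at 1.5-fold. The count was 2 at pseudocount 2 and at 3-fold, and 4 without mitochondrial chromosome genes. No paired analysis was possible because each group has 1 library and no replicate number.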

Other observations

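Genes of inflammatory signalling and the acute phase are known to control or accompany complement genes in other cells. Of 41 listed, 28 were measured. In JC-P versus JC-WT, 0 were at least 2-fold higher and 2 lower; in JC-M3 versus JC-P, 3 were higher and 2 lower; in JC-M3 versus JC-WT, 4 were higher and 2 lower. Of all measured genes, 4.76% were higher and 2.33% lower in the first comparison, 3.82% and 5.38% in the second, and 6.14% and 5.27% in the third. The median log2 ratios of the 28 were -0.03, 0.16 and 0.20 for these comparisons in turn. Irf7, an interferon response factor, stood at 329 (JC-WT), 659 (JC-P) and 738 (JC-M3) TPM, and Stat2, a transducer of interferon signals, at 111 (JC-WT), 221 (JC-P) and 232 (JC-M3) TPM. Lcn2, an acute phase gene that often accompanies C3 in inflamed epithelium, stood at 152 (JC-WT), 11.2 (JC-P) and 0.67 (JC-M3) TPM, a far wider range than the 40.8 (JC-WT), 28.7 (JC-P) and 28.7 (JC-M3) TPM of C3. The cytokine gene Tnf stood at 0.23 (JC-WT), 0.84 (JC-P) and 10.9 (JC-M3) TPM. Cebpd, a C/EBP factor of the acute phase, stood at 7.71 (JC-WT), 2.80 (JC-P) and 7.51 (JC-M3) TPM and Lif at 17.3 (JC-WT), 9.20 (JC-P) and 26.6 (JC-M3) TPM. Cebpb, a more abundant C/EBP gene of the list that was not past 2-fold, stood at 92.8 (JC-WT), 116 (JC-P) and 98.6 (JC-M3) TPM; it was added after its values were seen.

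The rule for naming genes of like pattern applied to members past 2-fold, of which there were none. Looked at after the values were seen, the courses of the measured members were shared by many genes. Of 8627 other protein-coding genes averaging 10 TPM or more, 412 lay within 0.2 log2 units of C3 over the steps from JC-WT to JC-P and from JC-P to JC-M3, 204 of C1ra, 213 of Cd59a and 114 of C1s1. C1qc, a chain of the C1q recognition protein, had 13 reads in JC-M3 and 0 in JC-P and JC-WT, while C1qa and C1qb were at 0 in all 3 libraries; it was singled out after its values were seen.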
